A study of Danio rerio with 56 samples.

Results

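Exemestane (EM), a steroidal inhibitor of aromatase, was compared with its solvent in juvenile zebrafish at 32 d. The 3 libraries labelled EM at 32 d were set against the 3 labelled DMSO at 32 d, so 6 of the 56 libraries of the series entered the comparison. The EM fish were of strain AB and were kept in 10 µg/L EM dissolved in dimethyl sulphoxide (DMSO), and the DMSO fish of the same strain received the solvent alone, for which the labels give the dose in differing units. Exposure was continuous until sampling and the water was renewed each day. Each library was made from the polyadenylated RNA of 25 whole fish pooled, and the sex of the fish was not given. The other 32 d libraries, 3 with EM plus 17β-oestradiol (EM+E2) and 3 with E2 alone, also in DMSO, entered the same fit to estimate the spread. E2 was at 100 ng/L in both, and EM in the mixture was at 10 µg/L. Libraries of these treatments at 16 and 64 d are compared further below, where EM at 64 d has only replicates 1 and 2.

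Aromatase turns androgens into oestrogens, and in fish its activity in the gonad is needed for an ovary to form and persist. Zebrafish of both sexes pass through a phase in which the gonad holds early egg cells, before it becomes an ovary or a testis. Growing egg cells stockpile messenger RNA for the embryo, for the egg coat and for the proteins that store and later translate that RNA. The liver makes vitellogenin, the yolk precursor, when oestrogen reaches it. In whole fish, fewer cells of a type and less RNA per cell cannot be told apart. In these pools neither can be told from a smaller number of fish with an ovary.

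The 6 libraries held 5048321 to 9722411 counted reads. DMSO replicate 2 stood apart, with 20.4% of its reads from mitochondrially encoded genes and 20.6% from fast muscle genes, against at most 10.3% and 12.4% in the other 5 libraries. Across the genes tested it correlated with the mean of the E2 and EM+E2 libraries at 16 d (r = 0.855) slightly more closely than with the mean of those at 32 d (r = 0.842). Each of the other 5 was closer to 32 d (r = 0.945 to 0.97) than to 16 d (r = 0.904 to 0.93). DMSO replicate 2 was thus less like either mean than the other 5 were. These correlations are across genes, which are not independent replicates. The 16 d mean includes E2 replicate 1, with 2.18% of its reads from fast muscle genes, against 5.01% or more in the other 16 d libraries. EM replicates 2 and 3 had the fewest reads (5263772 and 5048321), and 110 genes, picked because they were at 5 CPM or more there and at 0.5 CPM or less in EM replicate 1 and all DMSO libraries, summed to 1750 and 1810 CPM in them against 5.46 CPM in EM replicate 1 and 3.74 to 14.0 CPM in the DMSO libraries. The same genes were as high (1550 to 2270 CPM) in the other 4 of the 6 shallowest libraries of the series. These 4 were E2 2 d replicate 2, EM 16 d replicates 1 and 3 and E2 32 d replicate 1. No DMSO library was among the 6. None of the genes called lower in EM below was among the 110, but the way the 110 were picked fixed this in advance. What set these libraries apart was not tested.

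At 32 d every gene called was lower in EM, and among them were genes of the egg cell, such as zp3b of the egg coat, the egg linker histone h1m and bucky ball (buc). Of 21242 genes tested, 46 were lower in EM (0.217% of those tested) and 0 were higher (0%), by edgeR's quasi-likelihood test at a Benjamini-Hochberg adjusted p under 0.05. At an unadjusted p under 0.05, 975 genes were lower (4.59%) and 632 higher (2.98%), and the median log2 fold change over all genes was 0.03. Among the 46, 27 carried a gene name and 19 only a clone name or identifier, and 11 belonged to a list of 39 egg cell genes. In the 46 genes the highest EM library never reached the lowest DMSO library, a separation that 5.59% of all tested genes had in the same direction. The 46 were called as lower in these same libraries, so their separation is a description. Their levels lay between 0 and 6.52 CPM (reads per 1000000, scaled over all libraries) in EM, against 2.14 to 204 CPM in DMSO. The log2 fold changes ran from -2.43 to -12.1 with a median of -7.56, or -7.44 with the 6 genes that had no EM read placed at the bound that 3 counts over the group allow. The depth in EM was thin, since 27 of the 46 genes had 3 reads or fewer over the 3 EM libraries.

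**Figure D1:**
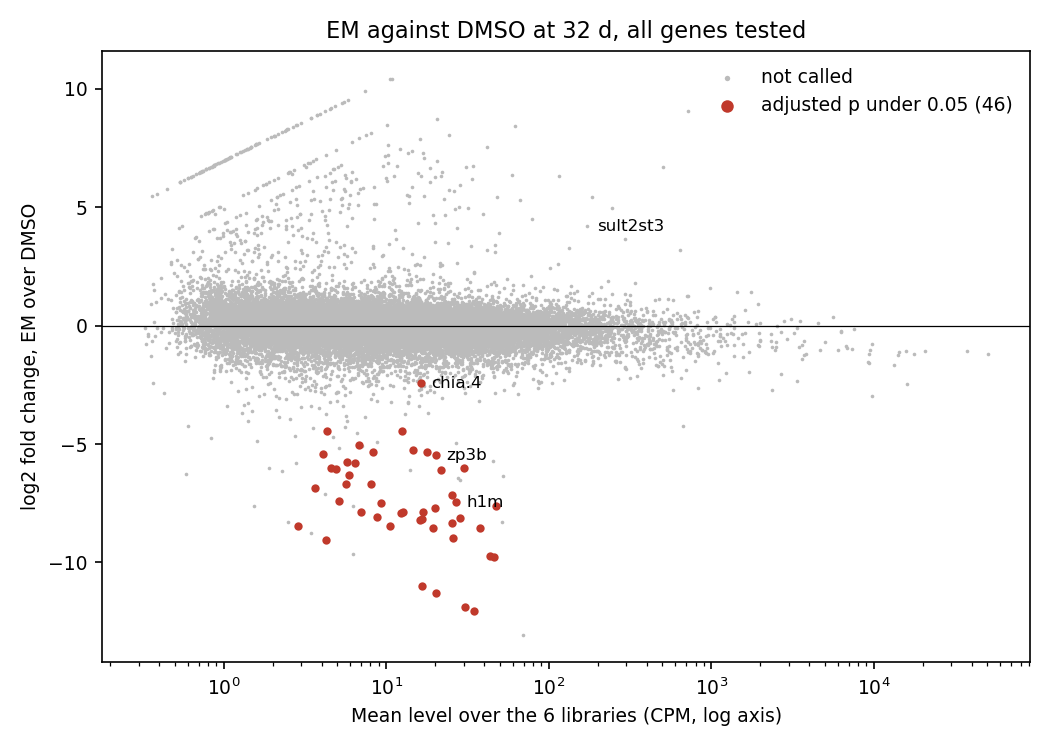
Each point is 1 of 21242 genes, with its mean level over the 6 libraries (CPM, log axis) and its log2 fold change of EM over DMSO at 32 d. The 46 genes with an adjusted p under 0.05 (red) all lie below 0, from -2.43 for chia.4 down to -12.1, while sult2st3, at 4.19, was not called.

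The calls depended on the libraries in the fit. With the 6 EM and DMSO libraries fitted alone, 45 of the 46 genes were tested and 0 were called (smallest adjusted p = 0.098). With EM replicate 1, 2 or 3 left out, 0 of the 46 were called, with adjusted p of 0.0959 to 0.274. Without DMSO replicate 1, 4 were called, without DMSO replicate 3, 18, and without DMSO replicate 2 all 46. In each of these fits every one of the 46 that was tested kept a negative log2 fold change. The 46 were chosen as lower in these libraries, and in each every EM library lay below every DMSO library. The kept sign was therefore largely fixed in advance.

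The called genes are described by their known roles, in an order made by hand after they were called. Egg coat genes come first. Zona pellucida proteins, which growing egg cells deposit around themselves, are coded in zebrafish by many close copies, and 23 genes with such a symbol were in the table. Of these, 12 passed the filter on low counts and 7 were lower in EM, against 0.217% of all genes tested. Members could pass the filter through the DMSO libraries alone, so this count is a description. Summed over the 23 genes, the level was 6.63, 2.69 and 3.98 CPM in EM, against 695, 129 and 372 CPM in DMSO, with no overlap between groups. All 3 EM libraries lay below all 3 DMSO libraries in 21 of the 23 genes, as in 5.27% of the 27184 genes with a read in these 6 libraries, tested or not, and 10 genes had no read in any EM library, 1 of which (zpd) had none in DMSO either. Reads of near-identical neighbours, such as zp3a.1 and zp3a.2 or zp3 and zp3.2, which lie next to each other in RefSeq's annotation of the GRCz12tu assembly, may be divided between them by the authors' counting.

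The gene zp3b had the smallest p of all genes tested. It stood at 1.34, 0.537 and 0.543 CPM in the EM libraries, against 64.2, 18.7 and 37.0 CPM in the DMSO libraries. The means were 0.808 ± 0.464 CPM in EM and 40.0 ± 22.9 CPM in DMSO (SD, n = 3 each), a log2 fold change of -5.48 ± 0.61 (SE, adjusted p = 0.0154 by edgeR). Every EM library was thus far under the lowest DMSO library, and DMSO replicate 2, the lowest of its group, was still over 18 CPM. By reads, zp3b in EM was 2.1% of its DMSO level, with an exact 95% interval of 1.29 to 3.22% that covers counting error only. No EM library held a read of zp2.2, against 63.7, 12.0 and 23.8 CPM in DMSO, which made it at least 281-fold lower with 3 counts over the EM group as the floor (adjusted p = 0.0176). For zp3a.1 the EM libraries gave 0, 0.358 and 0 CPM, against 55.7, 13.6 and 29.5 CPM in DMSO, so that 2 EM reads in all faced 882 DMSO reads (adjusted p = 0.0154). All 3 genes thus had reads in every DMSO library and few or none in EM.

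The other 4 egg coat genes called were zp3e, zp3a.2, zp3.2 and zp3. The copy zp3e was at 0.627, 0 and 0.181 CPM in EM, against 97.9, 11.8 and 41.7 CPM in DMSO (log2 fold change -7.17 ± 0.95, adjusted p = 0.0154). The copy zp3a.2 was at 0.269, 0 and 0.181 CPM in EM, against 75.4, 8.55 and 35.8 CPM in DMSO (adjusted p = 0.0202). In both, DMSO replicate 1 was highest and replicate 2 lowest, an order shared by most called genes. The gene zp3.2 had 2 EM reads against 496 in DMSO, 0.426% of the DMSO level with an exact 95% interval of 0.0514 to 1.55% (adjusted p = 0.0259), and zp3 had 1 against 396 (0.267%, 0.00674 to 1.49%, adjusted p = 0.0272). The most abundant egg coat gene, zpax1, looked up after its values were seen, narrowly missed the threshold. It was at 2.24, 0.716 and 0.362 CPM in EM, against 174, 24.1 and 113 CPM in DMSO (log2 fold change -6.37, adjusted p = 0.0532). Without DMSO replicate 2 it was called (adjusted p = 0.00789).

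**Figure D2:**
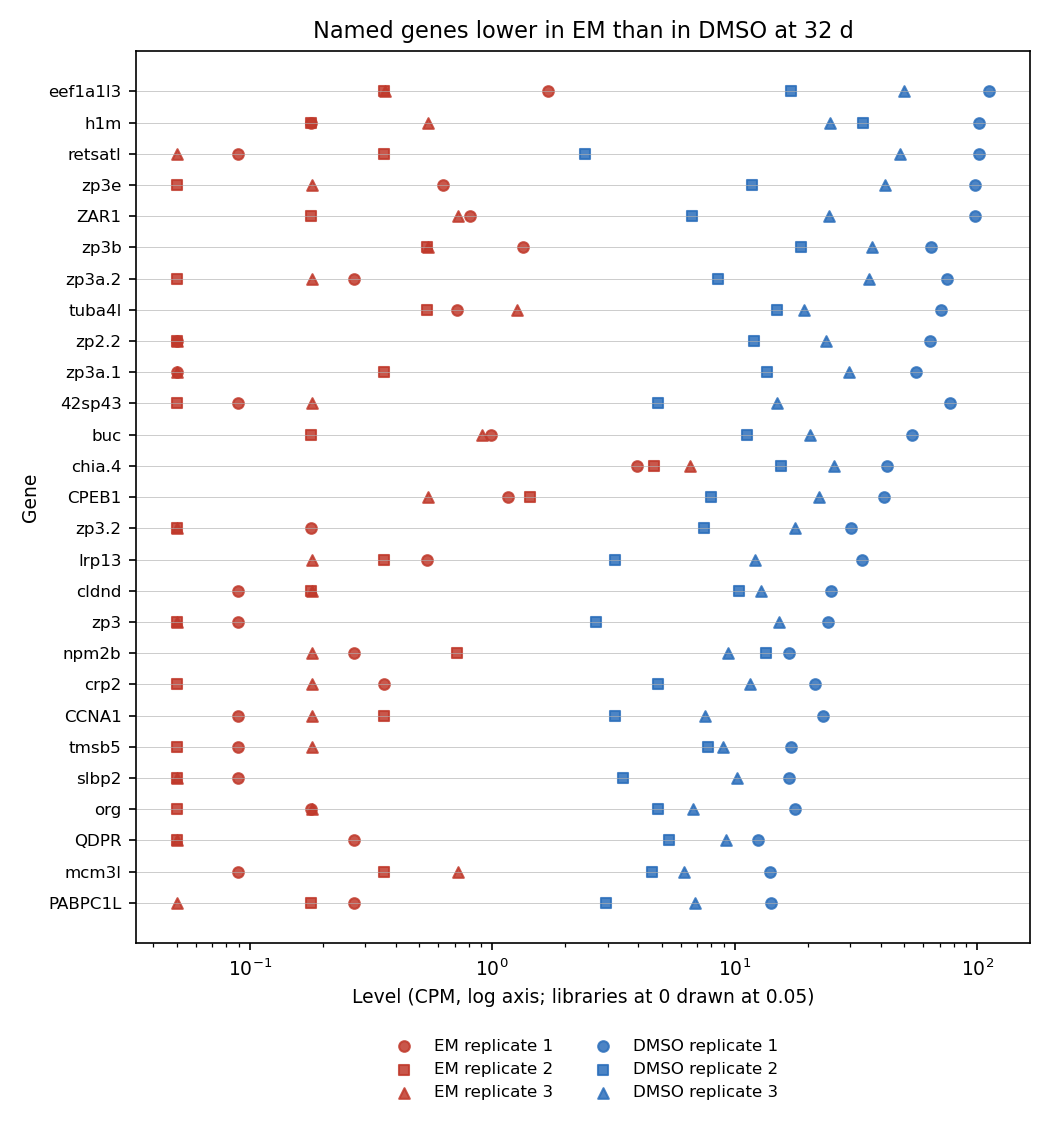
Levels (CPM, log axis) of the 27 named genes lower in EM at 32 d, in each EM library (red) and each DMSO library (blue), ordered by their DMSO mean, with libraries at 0 drawn at 0.05. EM and DMSO points do not overlap for any gene; DMSO replicate 1 (circles) is mostly the highest and DMSO replicate 2 (squares) mostly the lowest of its group.

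Of the called genes, h1m, npm2b and slbp2 are known for roles in the egg's chromatin or histones, and mcm3l for one in DNA replication. The linker histone of the egg cell, h1m, was at 0.179, 0.179 and 0.543 CPM in EM, against 102, 33.9 and 24.6 CPM in DMSO (log2 fold change -7.46 ± 0.91, adjusted p = 0.0154). Here DMSO replicate 3, not replicate 2, was the lowest of its group. The nucleoplasmin gene npm2b, whose product remodels chromatin after fertilisation, was at 0.269, 0.716 and 0.181 CPM in EM, against 16.7, 13.4 and 9.37 CPM in DMSO, with the DMSO values close together (log2 fold change -5.04 ± 0.67, adjusted p = 0.0154). The stem-loop binding protein slbp2, which in frogs binds stored histone messages, had 1 EM read against 277 in DMSO, 0.381% of the DMSO level (exact 95% interval 0.00962 to 2.14%, adjusted p = 0.0154). The replication licensing factor copy mcm3l was also lower, at 0.0896, 0.358 and 0.724 CPM in EM, against 14.0, 4.54 and 6.18 CPM in DMSO (log2 fold change -4.45 ± 0.71, adjusted p = 0.0259).

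Other called genes are known for storing or translating RNA. Bucky ball, buc, which organises the Balbiani body of the young egg cell, was at 0.985, 0.179 and 0.905 CPM in EM, against 53.9, 11.2 and 20.5 CPM in DMSO (log2 fold change -5.24 ± 0.84, adjusted p = 0.0259). ZAR1, a regulator of maternal message translation, was at 0.806, 0.179 and 0.724 CPM in EM, against 97.8, 6.68 and 24.5 CPM in DMSO (log2 fold change -6.09 ± 0.99, adjusted p = 0.0268). CPEB1, which binds the cytoplasmic polyadenylation element of stored messages, was at 1.16, 1.43 and 0.543 CPM in EM, against 41.3, 8.02 and 22.2 CPM in DMSO (log2 fold change -4.44 ± 0.64, adjusted p = 0.0195). All 3 genes were thus far lower in every EM library than in the weakest DMSO library. PABPC1L, the poly(A)-binding protein of eggs and early embryos, was close to the threshold at 0.269, 0.179 and 0 CPM in EM, against 14.1, 2.94 and 6.86 CPM in DMSO (log2 fold change -5.41 ± 0.97, adjusted p = 0.0486). The gene 42sp43, known in frogs as a part of the RNA storage particles of young egg cells, had 2 EM reads against 900 in DMSO, 0.235% of the DMSO level (exact 95% interval 0.0284 to 0.850%, adjusted p = 0.0259). The translation factor copy eef1a1l3 was at 1.70, 0.358 and 0.362 CPM in EM, against 112, 17.1 and 49.8 CPM in DMSO (log2 fold change -6.00 ± 1.02, adjusted p = 0.0314).

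The remaining named genes had more varied roles. Those tied to the egg cell were cldnd, a claudin of cell junctions (3 EM reads, adjusted p = 0.0259), CCNA1, the germ line cyclin A (4 EM reads, adjusted p = 0.0314), and org, named for oogenesis (3 EM reads, adjusted p = 0.0425). The receptor lrp13, which binds vitellogenin in perch, was at 0.537, 0.358 and 0.181 CPM in EM, against 33.4, 3.21 and 12.1 CPM in DMSO (log2 fold change -5.32 ± 0.86, adjusted p = 0.0259). The cytoskeletal genes were tuba4l, an alpha tubulin (18 EM reads against 923 in DMSO, adjusted p = 0.0154), and tmsb5, an actin-binding thymosin (2 EM reads, adjusted p = 0.0154). The metabolic genes were retsatl, a relative of retinol saturase (3 EM reads against 1463 in DMSO, 0.217% of the DMSO level, exact 95% interval 0.0446 to 0.634%, adjusted p = 0.0259), and QDPR, a pteridine reductase (3 EM reads, adjusted p = 0.0259). The C-reactive protein gene crp2 had 5 EM reads (adjusted p = 0.0259). The EM libraries of each of these genes lay below all DMSO libraries.

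One called gene kept a substantial level in EM. The acidic chitinase gene chia.4, listed here with intestine genes, was at 3.94, 4.66 and 6.52 CPM in EM, against 42.4, 15.5 and 25.6 CPM in DMSO. The means were 5.04 ± 1.33 CPM in EM and 27.8 ± 13.6 CPM in DMSO (SD, n = 3 each), a log2 fold change of -2.43 ± 0.40 (adjusted p = 0.0268), or 15.5% of the DMSO level (exact 95% interval 12.5 to 19.0%). It was the only member of the intestine list called, out of 38 tested, and the list's median log2 fold change was 0.00. At 16 d it was at 1.1, 0.744 and 1.87 CPM in EM, against 1.53, 0.966 and 0.970 CPM in DMSO, and the groups overlapped. The EM difference at 32 d less that at 16 d was not called for it (log2 -2.52, unadjusted p = 0.0109, adjusted p = 1).

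Of the egg cell list, 34 genes were in the table, 19 passed the filter, 11 were lower in EM and 0 higher. Over all genes tested, 0.217% were lower and 0% higher. The median log2 fold change of the 19 was -5.48, or -5.35 with members lacking EM reads at their bound, against 0.03 over all genes. Since members could pass the filter through the DMSO libraries alone, this count and median are a description. The 15 that did not pass had few reads, mostly from DMSO replicates 1 and 3. Among them bmp15, a growth factor of the egg cell, was at 0.179, 0.537 and 0.362 CPM in EM, against 2.44, 0.267 and 0.966 CPM in DMSO, with overlap. The transcription factor figla, which switches on egg coat genes in mammals, was at 0.0896, 0.179 and 0 CPM in EM, against 4.98, 0 and 1.54 CPM in DMSO, also with overlap. Other listed genes had many reads in EM. The RNA-binding gene RBPMS2 (ENSDARG00000045930) was at 63.0, 50.3 and 47.1 CPM in EM, against 62.4, 160 and 69.4 CPM in DMSO (log2 fold change -0.83, adjusted p = 0.658). The mitotic cyclin CCNB1 was at 13.3, 13.4 and 25.9 CPM in EM, against 40.9, 9.62 and 25.0 CPM in DMSO (log2 fold change -0.49, adjusted p = 0.818). In both genes the groups overlapped, and both are expressed outside the egg cell as well.

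Of 22 germ cell identity genes in the table, 13 were tested. Of these 1 was lower, h1m, which is also an egg cell gene, against 0.217% of all genes tested. The median was -1.59. At an unadjusted p under 0.05 by edgeR, 6 were lower, against 4.59% of all genes. In 5 all EM libraries lay below all DMSO libraries, against 5.59% of all genes. Without DMSO replicate 2, 3 of 17 tested were lower, against 0.434% of all genes. Members could pass the filter through the DMSO libraries alone, so these counts are a description. DDX4, the Vasa helicase of germ cells, was at 8.33, 4.12 and 3.98 CPM in EM, against 30.9, 6.68 and 17.4 CPM in DMSO (log2 fold change -1.69 ± 0.67, adjusted p = 0.658), and the groups overlapped. DAZL, an RNA-binding protein of germ cells, was at 1.34, 0.896 and 0.362 CPM in EM, against 8.27, 6.15 and 4.73 CPM in DMSO (log2 fold change -2.77, adjusted p = 0.607), without overlap. TDRD1, of the germ cell piRNA pathway, was at 2.42, 3.40 and 1.45 CPM in EM, against 22.7, 4.01 and 11.1 CPM in DMSO (log2 fold change -2.34, adjusted p = 0.658). The level of DDX4 in EM was 29.4% of that in DMSO (exact 95% interval 24.2 to 35.6%). Among meiosis genes, 12 of 21 were tested and 0 passed even at an unadjusted p under 0.05 (median 0.00), and among sperm and spermatid genes 14 of 22 were tested, again with 0 (median -0.18).

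The somatic cells of the gonad gave no called gene. The gene amh, for the anti-Müllerian hormone that Sertoli cells secrete, came closest, at 10.0, 7.88 and 5.07 CPM in EM, against 1.27, 0 and 2.61 CPM in DMSO. The EM libraries were all above the DMSO libraries, a separation that 5.35% of tested genes had in this direction, and the log2 fold change was 2.47 ± 0.74 (unadjusted p = 0.00588, adjusted p = 0.658). In EM+E2 it was at 1.92, 1.67 and 1.1 CPM, against 0.232, 0.151 and 0.458 CPM in E2 (log2 fold change 2.39 ± 0.88, adjusted p = 0.456), again without overlap. The gonadal growth factor gsdf was at 12.1, 8.42 and 4.89 CPM in EM, against 4.77, 1.34 and 8.98 CPM in DMSO (log2 fold change 0.75, adjusted p = 0.803), with overlap. DMRT1, a testis-determining factor, had too few reads to test, at 0.358, 0 and 0.181 CPM in EM, against 0.212, 0 and 0.193 CPM in DMSO. In all, 14 of 20 testis somatic genes were tested (0 called, median 0.56) and 13 of 18 ovarian somatic genes (0 called, median 0.18), among them both FOXL2 copies, transcription factors of the ovary, with log2 fold changes of 0.09 and 0.63.

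Of the steroid-making enzymes, 15 of 22 were tested and 0 were called (median 0.37). CYP19A1, the gonadal aromatase and target of EM, had no read in any EM library and 0, 0 and 0.0966 CPM in DMSO, which cannot show a difference at this depth. STAR, which moves cholesterol into mitochondria for steroid synthesis, was at 4.48, 11.6 and 18.3 CPM in EM, against 2.97, 1.60 and 6.66 CPM in DMSO (log2 fold change 1.59, adjusted p = 0.658), with overlap. The 11β-hydroxylase gene cyp11c1, of androgen and cortisol synthesis, was at 0.896, 0.179 and 0.543 CPM in EM, against 0.636, 3.47 and 0.966 CPM in DMSO (log2 fold change -1.43, adjusted p = 0.732).

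Vitellogenin RNA separated DMSO replicate 1 from the other 5 libraries, not EM from DMSO. The 8 genes summed to 2.06, 1.61 and 7.24 CPM in EM, against 797, 4.54 and 1.45 CPM in DMSO. For vtg1 the values were 0, 0 and 1.09 CPM in EM, against 309, 0 and 0.0966 CPM in DMSO (log2 fold change -8.30 ± 2.91, adjusted p = 0.658). All 7 tested vitellogenins had an unadjusted p under 0.05 on the low side (4.59% of all genes did) and 0 were called, and their groups overlapped in each. With oestradiol in the water the 8 genes summed to 327, 46.4 and 198 CPM in EM+E2, against 3070, 285 and 174 CPM in E2. The oestrogen receptor ESR1, itself raised by oestrogen in fish liver, was at 0.627, 0.537 and 0.724 CPM in EM, against 7.53, 0.267 and 0.772 CPM in DMSO (log2 fold change -2.15, adjusted p = 0.658), again with DMSO replicate 1 alone high. Of 12 other oestrogen-responsive genes tested, 0 were called. At an unadjusted p under 0.05 by edgeR, 5 were lower and 1 higher, against 4.59% and 2.98% of all genes. Their median was -0.91, or -1.24 without DMSO replicate 2. All EM libraries lay below all DMSO libraries in 0 of the 12 and above them in 1, against 5.59% and 5.35% of all genes. Summed over the 14 of the list in the table, the level was 3100, 6180 and 4830 CPM in EM, against 7980, 1110 and 4550 CPM in DMSO, with overlap.

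**Figure D3:**
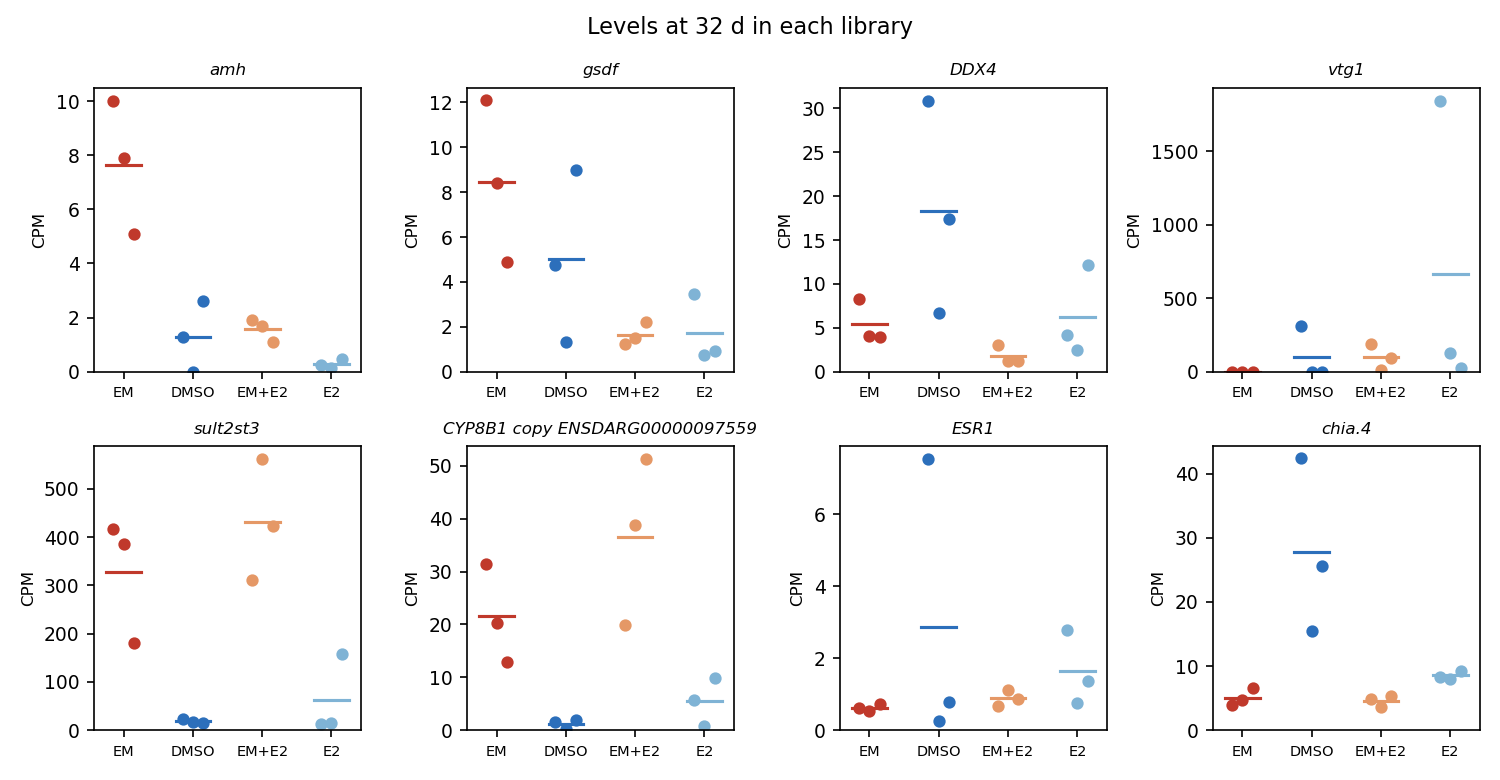
Levels (CPM, linear axes from 0) of 8 genes in each 32 d library by treatment, with the group mean as a short line. amh, sult2st3 and the CYP8B1 copy ENSDARG00000097559 are higher in every EM than in every DMSO library, chia.4 is lower, and among EM and DMSO libraries vtg1 and ESR1 are high in DMSO replicate 1 only.

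No gene was called higher in EM, but a small set lay well above DMSO in every EM library. These were chosen after their values were seen. The cytosolic sulphotransferase gene sult2st3, of a family that sulphates steroids, was at 416, 386 and 180 CPM in EM, against 23.5, 16.0 and 15.4 CPM in DMSO (log2 fold change 4.19 ± 0.87, unadjusted p = 0.000374, adjusted p = 0.126). A copy of CYP8B1, the sterol hydroxylase of bile acid synthesis (ENSDARG00000097559), was at 31.5, 20.2 and 12.9 CPM in EM, against 1.48, 0.267 and 1.93 CPM in DMSO (log2 fold change 4.02 ± 0.80, adjusted p = 0.0996). A second copy (ENSDARG00000097556) was at 28.7, 9.85 and 6.52 CPM in EM, against 1.48, 2.67 and 0.676 CPM in DMSO (log2 fold change 3.35, adjusted p = 0.157), while the copy ENSDARG00000053068 overlapped between groups (log2 fold change 0.39). Reads may be divided among these copies. The EM+E2 and E2 libraries entered the EM and DMSO comparison only through the shared estimate of the spread. In them, sult2st3 was at 312, 561 and 422 CPM in EM+E2, against 11.8, 14.8 and 158 CPM in E2 (log2 fold change 2.85 ± 0.81, unadjusted p = 0.00418, adjusted p = 0.456). The CYP8B1 copy ENSDARG00000097559 was at 19.8, 38.8 and 51.2 CPM in EM+E2, against 5.80, 0.757 and 9.84 CPM in E2 (log2 fold change 2.76 ± 0.73, adjusted p = 0.456). DESeq2, a second count model, called 90 genes lower (0.435% of those it tested), all 46 among them, and 22 higher (0.106%), sult2st3 and both of these copies among them. Of its 22, 10 belonged to the 110 genes that were high in the shallow libraries and 12 had all EM libraries above all DMSO libraries (5.35% of tested genes), with 2 genes in both sets and 2 in neither. The 22 were called as higher in these same libraries, so the count of 12 is a description.

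Leaving out DMSO replicate 2 raised the number of calls, egg cell genes among them. Of 21884 genes then tested, 95 were lower in EM (0.434%), all 46 among them, and 1 was higher (0.00457%). The named genes with the smallest p in that fit were retsatl, slbp2, zp3b, zp3e and tuba4l. Of the egg cell list 29 members were then tested and 15 were lower, and of the 23 egg coat genes 20 and 13. Members could then pass the filter through DMSO replicates 1 and 3 alone, and the library left out was mostly the lowest of its group. These counts are therefore a description. Genes added, named after their values were seen, included caprin2, which regulates translation (0.627, 0.358 and 0.543 CPM in EM, against 25.9, 0.802 and 11.4 CPM in DMSO, adjusted p = 0.000869 without that replicate). They also included the importin kpna7 of eggs and embryos (0, 0.358 and 0.181 CPM in EM, against 28.1, 1.87 and 12.6 CPM in DMSO, adjusted p = 0.00154; below the filter on low counts with all 12 libraries) and the RNA-binding LSM14B (0.806, 0.179 and 0.543 CPM in EM, against 32.1, 3.47 and 15.8 CPM in DMSO, adjusted p = 0.00345). In each of the 3, DMSO replicate 2 was the lowest of its group. The gene called higher was the lens crystallin crygm2d17, at 23.3, 48.2 and 40.4 CPM in EM, against 5.52, 34.7 and 5.60 CPM in DMSO (log2 fold change 2.77 without replicate 2, adjusted p = 0.0319).

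Outside the gonad and its targets the lists of organs, metabolism and stress held no called gene other than chia.4. Several of their medians moved with DMSO replicate 2. Fast muscle genes had a median log2 fold change of -0.86 over 44 genes. At an unadjusted p under 0.05, 17 were lower and 0 higher, against 4.59% and 2.98% of all genes tested. Without that library the median was -0.14, with 4 lower and 6 higher, as were 426 and 516 of all 21884 genes. In 12 of the 44 all EM libraries lay below all DMSO libraries and in 1 above them, against 5.59% and 5.35% of all genes. TNNI2, the fast troponin I, was at 726, 567 and 549 CPM in EM, against 2640, 8420 and 1340 CPM in DMSO (log2 fold change -2.72, adjusted p = 0.519). Cytosolic ribosomal protein genes had a median of -0.77, or 0.04 without the library, mitochondrially encoded genes -1.03, or 0.13, and lens and retina genes -0.89, or 0.33. Exocrine pancreas genes stood at 1.12, or 0.60 without it; CPA1, a carboxypeptidase zymogen, was at 1280, 1910 and 1230 CPM in EM, against 376, 77.0 and 1040 CPM in DMSO (log2 fold change 1.59, adjusted p = 0.665). Skin and keratin genes had a median of 0.66, or 0.40 without it. In 9 of the 30 tested all EM libraries lay above all DMSO libraries and in 1 below them, against 5.35% and 5.59% of all genes. The part of DMSO replicate 2's state in these medians was measured only by its omission.

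**Figure D4:**
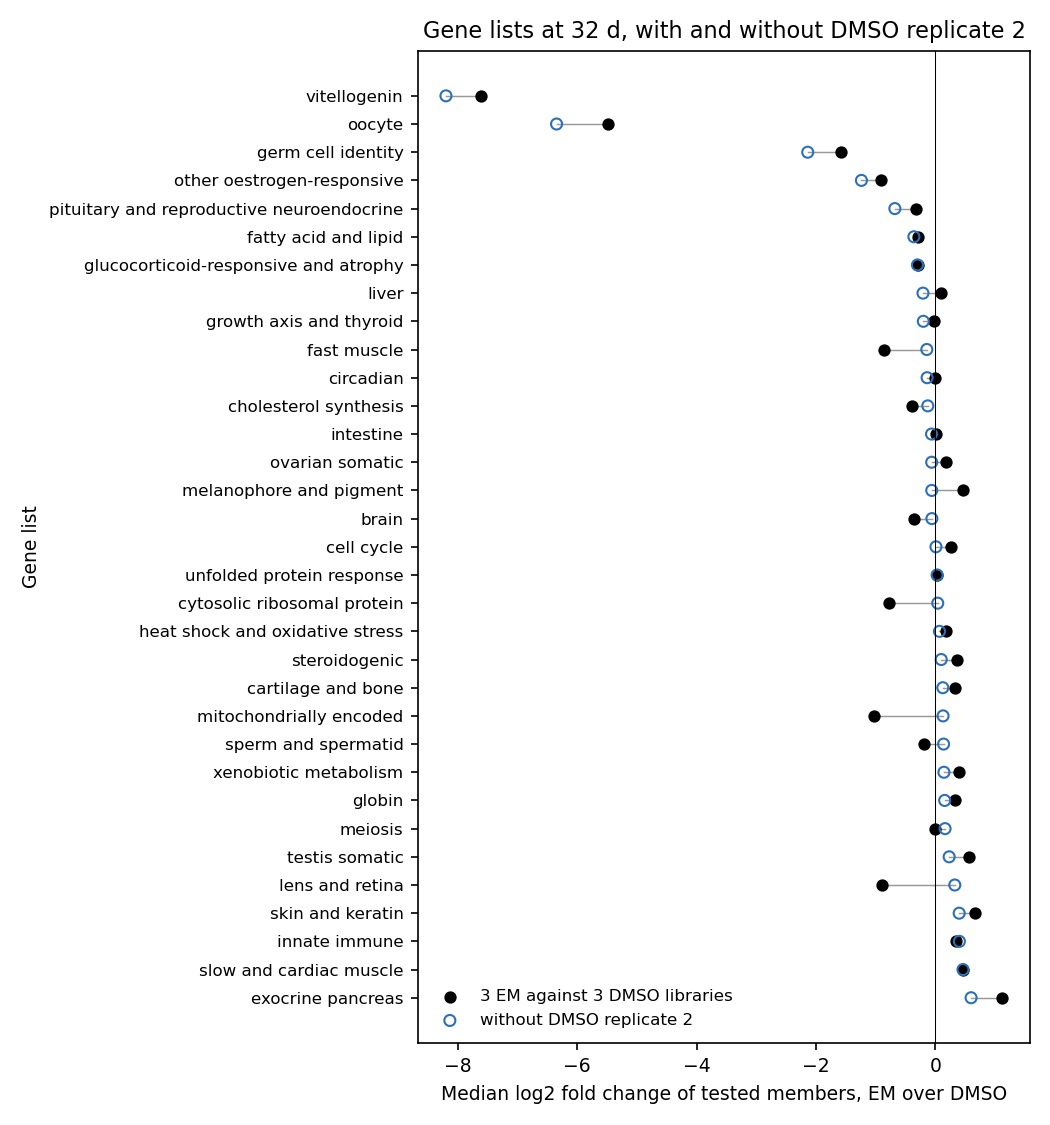
Median log2 fold change of EM over DMSO for the tested members of each of 33 gene lists, with all 6 libraries (filled) and without DMSO replicate 2 (open), against a median of 0.03 for all genes. The vitellogenin, oocyte and germ cell medians lie below 0 in both, the oocyte and germ cell ones over more members without that library, whereas the fast muscle, ribosomal, mitochondrial and lens medians lie nearer to 0 or above it without that library. Vitellogenin genes summed to 797 CPM in DMSO replicate 1, which both fits include, and to at most 7.24 CPM in any other EM or DMSO library.

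The EM effect was also read against a background of oestradiol. EM+E2 against E2 gave 0 called genes (0%), with 2321 at an unadjusted p under 0.05 and 58 by DESeq2, and the interaction of EM and E2 gave 0 (0%), with 1613 and 184. Of the 46 genes, 42 had a log2 fold change below 0 in EM+E2 against E2, 12 of the 46 at an unadjusted p under 0.05, with a median of -1.12. Over all 21242 genes tested, 2321 had such a p in that contrast, in either direction, and the median was -0.06. In the interaction, which shares the EM and DMSO libraries that chose the 46, 41 of them had an unadjusted p under 0.05. Over all 21242 genes tested, 1613 did. The 46 genes summed to 28.2, 8.93 and 26.4 CPM in EM+E2, against 53.4, 42.1 and 60.2 CPM in E2, while the sums were 16.8, 11.8 and 15.4 CPM in EM, against 2990, 361 and 1250 CPM in DMSO. In each of the 46, every EM+E2 and every E2 library was below all DMSO libraries, the highest at 9.27 CPM, as in 0.97% of all tested genes. The 46 were chosen as higher in these same DMSO libraries, so this count is a description. For zp3b the EM+E2 libraries gave 1.83, 0.744 and 1.84 CPM, against 1.63, 0.908 and 1.72 CPM in E2. These contrasts share libraries with the EM and DMSO comparison, except EM+E2 against E2. That contrast too takes its spread from the same fit of the 12 libraries at 32 d.

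At 16 d the 46 genes were at the level they had under EM at 32 d in both groups. They summed to 20.4, 10.9 and 11.4 CPM in EM, against 18.9, 23.8 and 7.18 CPM in DMSO, no gene exceeded 3.95 CPM in any of those libraries, and of all genes 0 were called between EM and DMSO at 16 d by edgeR (0%), with 398 at an unadjusted p under 0.05. The change of the EM difference between the ages called 0 genes (0%), with 468 at an unadjusted p under 0.05 and 68 by DESeq2. At 64 d, in libraries of their own, the 46 genes summed to 28.3 and 26.6 CPM in EM, against 61200, 23300 and 36700 CPM in DMSO. All 46 were tested there and all 46 were lower in EM, where 17.6% of all genes tested were. The EM difference at 64 d less that at 32 d was called lower for 1014 genes (4.43%) and higher for 28 (0.122%), and 7 of the 46 were among those lower: buc, chia.4, cldnd, CPEB1, tuba4l, ZAR1 and zp3b. Without EM 64 d replicate 1 or 2 the calls of either direction numbered 6 or 5. For zp3b the 64 d levels were 1.19 and 0.746 CPM in EM, against 1940, 557 and 905 CPM in DMSO.

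**Figure D5:**
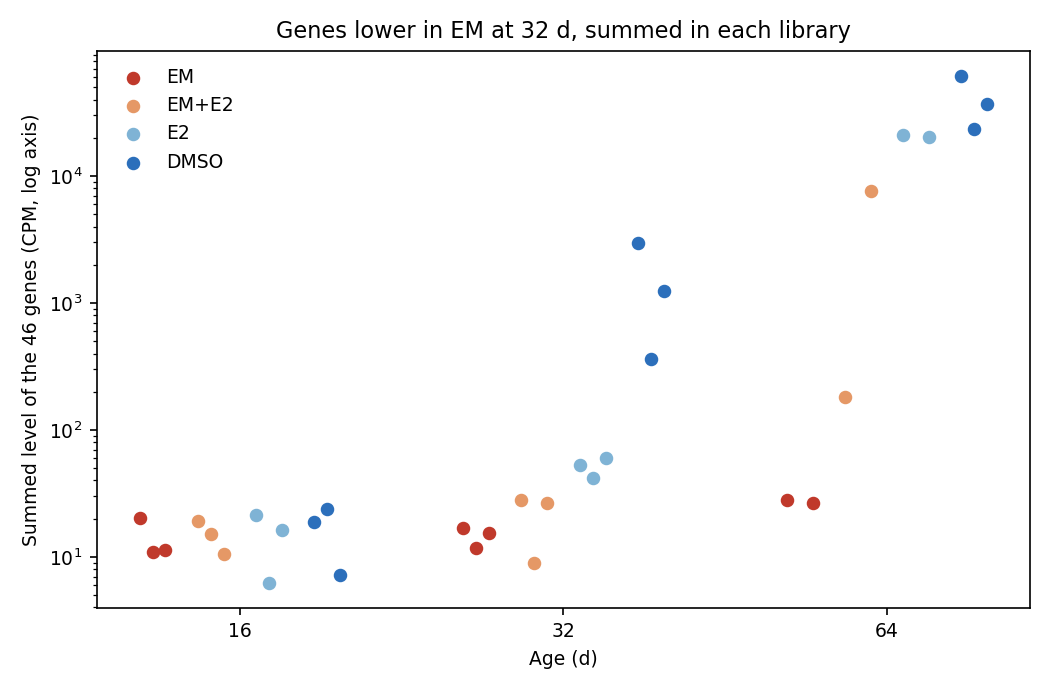
Summed level (CPM, log axis) of the 46 genes lower in EM at 32 d, in each library at 16, 32 and 64 d by treatment. EM stays between 10.9 and 28.3 CPM at all 3 ages. DMSO lies at 7.18 to 23.8 CPM at 16 d, 361 to 2990 CPM at 32 d and 23300 to 61200 CPM at 64 d. At 32 d E2 lies at 42.1 to 60.2 CPM and EM+E2 at 8.93 to 28.2 CPM. At 64 d E2 lies at 20300 and 21200 CPM and EM+E2 at 181 and 7660 CPM. The genes were chosen on the 32 d EM and DMSO libraries.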

How the data were processed

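Each library held polyadenylated RNA of 25 whole zebrafish and kept strand information, according to the labels. Tools named in the submitters' processing notes are HTSeq 0.9.1, HISAT2 2.0.5, SAMtools 1.5, MultiQC 0.9, FastQC 0.11.8 and Picard, with the build GRCz11; annotation release and counting options are not given in the sources used here. The authors deposited raw read counts for 32520 genes in 56 libraries, and a second table of normalized signal, in which the deposited values are counts over a library factor. Identical raw counts stood under 2 names, EM+E2 2 d replicate 2 and EM+E2 16 d replicate 3, and the 2 d column was left out.

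Genes were tested in R 4.3.3 with edgeR 4.0.16 (filterByExpr with a minimum count of 10 and total of 15, TMM scaling, group means over the 12 libraries at 32 d, quasi-likelihood F-test, Benjamini-Hochberg adjustment over all genes tested). Levels are CPM (read counts per 1000000) scaled by TMM over 55 libraries. SE is the size of the log2 fold change divided by the square root of its quasi-likelihood F, so it is derived from the test statistic. Intervals and floors use 3 counts and 95% limits and cover counting error only. In simulated counts of 21242 genes, 200 were changed 4-fold and 200 others 16-fold. The changed genes were drawn only from those above a floor on the mean count over the 12 libraries. From these counts edgeR recovered 43% of 4-fold and 91.5% of 16-fold changes, with 3.58% of all calls false. DESeq2 1.42.0 recovered 64.5% and 96.5%, with 15.9% false. Apart from the changed genes, all 12 simulated libraries shared 1 mean profile. None stood apart as DMSO replicate 2 or the shallow libraries did, so these rates may not hold for the real counts.

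Replicates were separate pools by their labels. Nothing says whether they came from separate tanks, so p-values measure the spread between these pools. No pair of replicates agreed within sampling noise (chi-square per degree of freedom 12.1 to 182). The comparison, members and gene lists were chosen with earlier results of these data known. Symbols came from a table of gene names (29201 of 32520 genes), which gives some zebrafish genes in capitals; 811 of 887 listed symbols matched, 121 of them without the letter of the gene copy. Named genes were a fixed panel, up to 12 called genes per direction by size of change, up to 4 called members per list or the 2 with the smallest p, up to 5 without DMSO replicate 2, and up to 3 per direction in the interactions. The other genes are named because they belong to the 46 called or were looked up after their values were seen. Alternatives were RLE scaling, no filter, DESeq2, a replicate block, the 6 libraries alone, all ages in 1 fit, reads recovered from the normalized table, and leaving out each library. Whole reads were recovered from the normalized signal for 100% of values (tolerance 0.01). The tables are different counts: they share 27913 genes, and the raw table holds 1.21 to 2.28 times the recovered reads of a library. E2 at 32 d against E2 at 16 d, meant to give genes of age, called 0 of 19241 genes and was not used further.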

Additional observations from a re-analysis of the deposited data

Results flagged for a closer look

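The difference between EM and DMSO was set against itself at another age, as EM minus DMSO at 64 d less EM minus DMSO at 32 d, by an interaction term in edgeR with Benjamini-Hochberg adjustment. It was called higher for 28 genes and lower for 1014. Among the 46 genes lower in EM at 32 d, the log2 value was -4.32 for buc, -5.26 for chia.4, -4.37 for cldnd, -4.44 for CPEB1, -4.76 for tuba4l, -7.04 for ZAR1 and -4.83 for zp3b, so each was lower still relative to DMSO at 64 d. Genes looked up after their values were seen gave -7.89 for buc2l, -6.38 for cldng, -5.56 for zpax1 and -6.45 for zpax2.

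The named genes with the smallest p on the low side were inka1b, an inhibitor of a p21-activated kinase (-4.93), SIVA1 (-5.63) and the thioesterase PPT2 (-9.40). At 32 d inka1b and SIVA1 were not called and PPT2 had too few reads to test. For inka1b the levels were 8.69, 13.1 and 11.6 CPM in EM, against 10.5, 6.41 and 9.75 CPM in DMSO at 32 d, and 7.25 and 9.06 CPM in EM, against 220, 157 and 170 CPM in DMSO at 64 d. On the high side were FAM13A (2.23), CRTAC1 (2.32), a protein of cartilage matrix, and kirrel3l (2.28), an adhesion protein. For FAM13A the levels were 49.7, 60.0 and 41.5 CPM in EM, against 87.5, 124 and 50.8 CPM in DMSO at 32 d, and 135 and 96.4 CPM in EM, against 29.2, 43.9 and 43.4 CPM in DMSO at 64 d. All these calls rest on both EM libraries at 64 d, since 6 remained of either direction without EM 64 d replicate 1 and 5 without replicate 2.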

How the results depend on the processing

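All 46 genes kept a negative log2 fold change under every alternative in which they were tested (45 of 46 with the 6 libraries alone, 37 with recovered reads, 46 in the others), and no named gene that was called reversed. Since the 46 were chosen with every EM library below every DMSO library, this sign was largely fixed in advance. The number called lower was 46, and 76 without a filter on low counts, 90 with DESeq2, 112 with all ages in 1 fit (45 of the 46 among them), 0 with the 6 libraries alone (smallest adjusted p 0.098) and 0 without the 3 shallowest libraries at 32 d, an alternative chosen after seeing the data that leaves EM with 1 library assumed to vary like the other groups. The number called higher was 0, and 1, 22 and 4 without the filter, with DESeq2 and with all ages. The 11 egg cell genes called became 0 with the 6 libraries, 17 with all ages and 0 without the shallow libraries. Leaving out 1 library at a time gave 0 to 95 genes lower, 0 to 1 higher and 0 to 15 egg cell genes.

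By edgeR, EM+E2 against E2, the interaction, the difference of 32 d less 16 d and E2 at 32 d against 16 d gave 0 calls, and the difference of 64 d less 32 d gave 1042. DESeq2 gave 58 for EM+E2 against E2, 184 for the interaction, 1957 for 64 d less 32 d, 68 for 32 d less 16 d and 265 for E2 at 32 d against 16 d, the last also 11 without a filter. Leaving out 1 library gave 0 to 1, 0 to 15, 5 to 1230, 0 to 3 and 0 to 37 in the same order. The causes of these differences were not tested. Same-numbered EM and DMSO libraries gave r of -0.01, 0.164 and -0.178 across genes, and differently numbered ones gave -0.16 to 0.244. The replicate number was not taken as a pairing. Whether pools of the same number shared a tank or batch was not tested. With a replicate block 41 of the 46 were called and the interaction called 1 gene. Depth limits the genes at a few reads in EM, and CYP19A1, DMRT1, bmp15 and figla could not be tested.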

Other observations

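The interferon-induced genes RSAD2 and isg15 were looked up after their values were seen, and neither was called for a change in the EM difference between 16 and 32 d. RSAD2, the antiviral protein viperin, was at 0.659, 0.837 and 0.375 CPM in EM, against 46.7, 16.4 and 23.0 CPM in DMSO at 16 d, and at 29.9, 48.0 and 1.81 CPM in EM, against 6.26, 9.09 and 5.99 CPM in DMSO at 32 d (log2 difference of differences 7.36, adjusted p = 0.192). At 16 d the EM libraries were thus all below the DMSO libraries, and at 32 d the groups overlapped. The ubiquitin-like isg15 was at 0.659, 2.88 and 2.06 CPM in EM, against 68.1, 13.9 and 34.6 CPM in DMSO at 16 d, and at 17.6, 24.9 and 3.26 CPM in EM, against 7.53, 4.01 and 9.56 CPM in DMSO at 32 d (5.41, adjusted p = 0.375). At 32 d EM replicate 3 was below all DMSO libraries for both genes.

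By symbol, 38 of the 46 genes lower in EM at 32 d were placed in RefSeq's annotation of the GRCz12tu assembly, on 17 chromosomes. Only pairs of placed genes that followed each other along a chromosome were compared. Of such pairs, 6, made up of 10 genes, lay within 5 protein-coding genes of each other. Among them were zp3 and zp3.2, zp3a.2 and zp3a.1, and zgc:173856 and si:ch211-146l10.8, each of these directly adjacent. How often such pairs occur among all genes was not tested.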
